A study of Mus musculus with 6 samples.

Results

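Transcripts of 9 genes of the myelin sheath (Mbp, Mobp, Mag, Mog, Cnp, Cldn11, Mal, Ermn and Opalin) were followed through single nuclei of the mouse frontal lobe. Levels are given in oligodendrocytes, the cells that form myelin in the brain, and in the other classes of nuclei, where the same transcripts were seen at low level. The genes were chosen by symbol, and all 9 were found, each once, among the 32285 genes of every library. The 6 libraries, 1 per mouse, came from 3 SwDI/TKO mice, in which Trem2 was knocked out, and 3 SwDI/TWT mice, in which Trem2 was wild type. All 6 mice carried Tg-SwDI, which drives human amyloid precursor protein bearing Swedish, Dutch and Iowa mutations from a neuronal Thy1 promoter, so both genotypes were amyloid-bearing. The age of the mice and the Trem2 knockout allele are not stated in the labels used. Trem2 is a lipid receptor of microglia, and microglia take up myelin debris.

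Myelin is oligodendrocyte membrane wound around axons and compacted into layers. Compaction depends on basic proteins that hold the cytoplasmic faces together, while the innermost and outermost wraps, the tight junctions between wraps and the uncompacted channels each have their own proteins. Mbp, myelin basic protein, and Mobp, myelin-associated oligodendrocyte basic protein, belong to compact myelin. Mag, a sialic-acid-binding adhesion molecule, faces the axon, and Mog, an immunoglobulin-family glycoprotein, lies on the outer surface. Cnp, a nucleotide phosphodiesterase, keeps cytoplasmic channels open, Cldn11 forms the tight junctions, and Mal is a proteolipid of membrane sorting. Ermn binds actin in the maturing sheath, and Opalin is a transmembrane sialoglycoprotein of mature oligodendrocytes. Much Mbp mRNA is carried out into the processes for local translation, and nuclei hold mainly RNA that has not left the soma.

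Promoter sequence was available for 8 of the 9 genes, as 300 bases around each annotated start in RefSeq (GRCm38.p6). Each was searched on both strands for the core that SOX factors bind (ACAAAG, or CTTTGT on the other strand), Sox10 being the SOX factor of the oligodendrocyte lineage, and for the core that Myrf, the regulator of myelin gene expression, binds (CTGGCAC or CTGGTAC, or GTGCCAG or GTACCAG on the other strand). The SOX core occurred at least once in 18.7% of 32851 promoters of this length in the table, and the Myrf core in 7.10%. Mobp held 6 SOX cores, the most found in any promoter. Opalin held 2 SOX cores and 1 Myrf core, Cnp held 1 of each, as did 2 of the 3 annotated Mag starts, whose windows overlap, Mog held 1 Myrf core, and Cldn11, Mal and Ermn held neither. For each of the 4 genes with a SOX core, 1 promoter is printed 5′ to 3′ on the strand of the gene. Of the 2 Mag windows with a SOX core, 1 is printed. The sequences show how far the genes differ in this feature, and capitals mark the cores.
Mobp, chr9:120149492-120149791, plus strand: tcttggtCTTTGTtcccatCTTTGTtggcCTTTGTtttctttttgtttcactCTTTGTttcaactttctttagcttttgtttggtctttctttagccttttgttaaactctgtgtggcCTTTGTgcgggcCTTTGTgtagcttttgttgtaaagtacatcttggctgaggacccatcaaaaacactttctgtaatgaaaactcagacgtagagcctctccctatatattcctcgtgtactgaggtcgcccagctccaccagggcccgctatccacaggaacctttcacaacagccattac
Mag, chr7:30914814-30915113, minus strand: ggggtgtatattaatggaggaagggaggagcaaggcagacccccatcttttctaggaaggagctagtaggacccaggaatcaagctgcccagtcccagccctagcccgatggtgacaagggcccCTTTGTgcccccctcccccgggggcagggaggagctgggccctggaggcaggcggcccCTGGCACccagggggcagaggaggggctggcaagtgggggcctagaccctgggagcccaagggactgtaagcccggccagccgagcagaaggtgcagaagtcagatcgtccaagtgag
Cnp, chr11:100574689-100574988, plus strand: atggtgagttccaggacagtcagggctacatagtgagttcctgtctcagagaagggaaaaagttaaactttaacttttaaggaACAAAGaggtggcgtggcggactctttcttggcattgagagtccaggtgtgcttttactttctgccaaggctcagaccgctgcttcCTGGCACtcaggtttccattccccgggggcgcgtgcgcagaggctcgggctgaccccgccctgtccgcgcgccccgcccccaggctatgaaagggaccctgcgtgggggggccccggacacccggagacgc
Opalin, chr19:41077064-41077363, minus strand: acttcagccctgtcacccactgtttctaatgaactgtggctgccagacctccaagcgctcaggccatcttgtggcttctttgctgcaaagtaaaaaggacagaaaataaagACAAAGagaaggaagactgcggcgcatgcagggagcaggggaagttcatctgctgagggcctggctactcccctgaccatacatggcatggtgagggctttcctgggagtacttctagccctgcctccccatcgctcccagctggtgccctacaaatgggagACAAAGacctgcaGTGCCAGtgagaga
These matches describe letters in a window, and no data on factor binding were analysed here.

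The gene models (mm10, GENCODE M21) place Mbp (ENSMUSG00000041607) on chromosome 18 from 82475146 to 82585637 on the plus strand, Mobp (ENSMUSG00000032517) on chromosome 9 from 120149707 to 120181484 on the plus strand and Mag (ENSMUSG00000036634) on chromosome 7 from 30899176 to 30914873 on the minus strand. Mog (ENSMUSG00000076439) lies on chromosome 17 from 37010743 to 37023398 on the minus strand, Cnp (ENSMUSG00000006782) on chromosome 11 from 100574904 to 100591729 on the plus strand and Cldn11 (ENSMUSG00000037625) on chromosome 3 from 31149920 to 31164324 on the plus strand. Mal (ENSMUSG00000027375) and Ermn (ENSMUSG00000026830) are both on the minus strand of chromosome 2, from 127633226 to 127656695 and from 58045113 to 58052864, and Opalin (ENSMUSG00000050121) is on the minus strand of chromosome 19 from 41061710 to 41077113. Of the 16 annotated Mbp transcripts, 12 start more than 50 kb inside the gene; the longer ones belong to the golli unit, which is known from neurons and immune cells as well as from oligodendrocytes. Cnp overlaps Dnajc7 on the opposite strand over 8912 bases, and Ermn overlaps Galnt5 on the opposite strand over 748 bases. The strand setting of the counting is not stated in the labels used, so reads of these pairs may not have been told apart.

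The deposited matrices held 39752 barcodes, 5220 to 8095 per library, where the study's design text gives an estimate of 5700 to 8100 nuclei per sample. Any pair of libraries shared 5 to 14 barcodes over the 15 pairs. After filters and doublet removal 33008 nuclei remained, 4427 to 7460 per library. SwDI/TKO replicate 1 stood apart from the other libraries. It held 51317961 unique molecular identifier (UMI) counts, against 11493087 to 17835287 in the other 5. It was counted with Cell Ranger 7.0.0 where the others were counted with 6.1.2, so most results that rest on it are given with and without it. Trem2 in microglia, the check of the knockout, gave 121, 132 and 90 UMIs (250, 668 and 428 CPM, UMIs scaled to the summed UMIs of the class in that library) in SwDI/TKO libraries and 221, 143 and 154 UMIs (1608, 1393 and 816 CPM) in SwDI/TWT libraries. Trem2 was therefore lower in every SwDI/TKO library by CPM but not at 0, and whether the counted 3′ end lies outside the deleted part is not stated in the labels used.

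Oligodendrocytes were identified without the 9 genes, which were left out of the clustering and of the markers. All 14 markers used, among them Aspa, Ugt8a and Myrf, were detected in the class in every library, with a summed level of 16514 to 18236 CPM in SwDI/TKO and 15881 to 17382 CPM in SwDI/TWT oligodendrocytes. In SwDI/TKO and SwDI/TWT oligodendrocytes the summed astrocyte markers came to 274 to 412 CPM and 315 to 427 CPM, the microglia markers to 162 to 222 CPM and 170 to 229 CPM, and the striatal projection neuron markers to 111 to 587 CPM and 171 to 347 CPM. The part of these other transcripts in the results was not tested. The class name, like the others, was rebuilt from clusters and may differ from the authors' annotation. It held 1258, 726 and 677 nuclei in SwDI/TKO libraries and 673, 708 and 721 in SwDI/TWT libraries, in 2 clusters. The smaller cluster drew 1119 of its 1204 nuclei from SwDI/TKO replicate 1, and the larger drew 139 of its 3559 from that library. As a share of all nuclei, oligodendrocytes made up 16.9%, 15.8% and 15.3% in SwDI/TKO (16.0% ± 0.80, SD, n = 3) and 13.03%, 12.8% and 12.4% in SwDI/TWT (12.7% ± 0.33, SD, n = 3). Every SwDI/TKO share lay above every SwDI/TWT share, a difference of 3.26 percentage points. The two-sided exact permutation test gave p = 0.1, the smallest that 3 against 3 libraries allow, so the design cannot pass a threshold of 0.05.

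In oligodendrocytes none of the 9 myelin genes passed the test between genotypes. Summed counts per library were tested with edgeR's quasi-likelihood test and Benjamini-Hochberg adjustment over all 7557 genes that passed the filter on low counts, and levels are given as CPM after TMM normalization. No gene in the class was called at an adjusted p under 0.05 (0% of those tested, with 0 also by DESeq2), and 470 genes (6.22%) had an unadjusted p under 0.05 in edgeR and 345 in DESeq2. None of the 9 genes was called, and none had an unadjusted p under 0.05 with either tool. On the log2 scale 5 of the 9 were higher and 4 lower in SwDI/TKO, with a median of 0.20, where the median of all genes tested was 0.02.

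**Figure D1:**
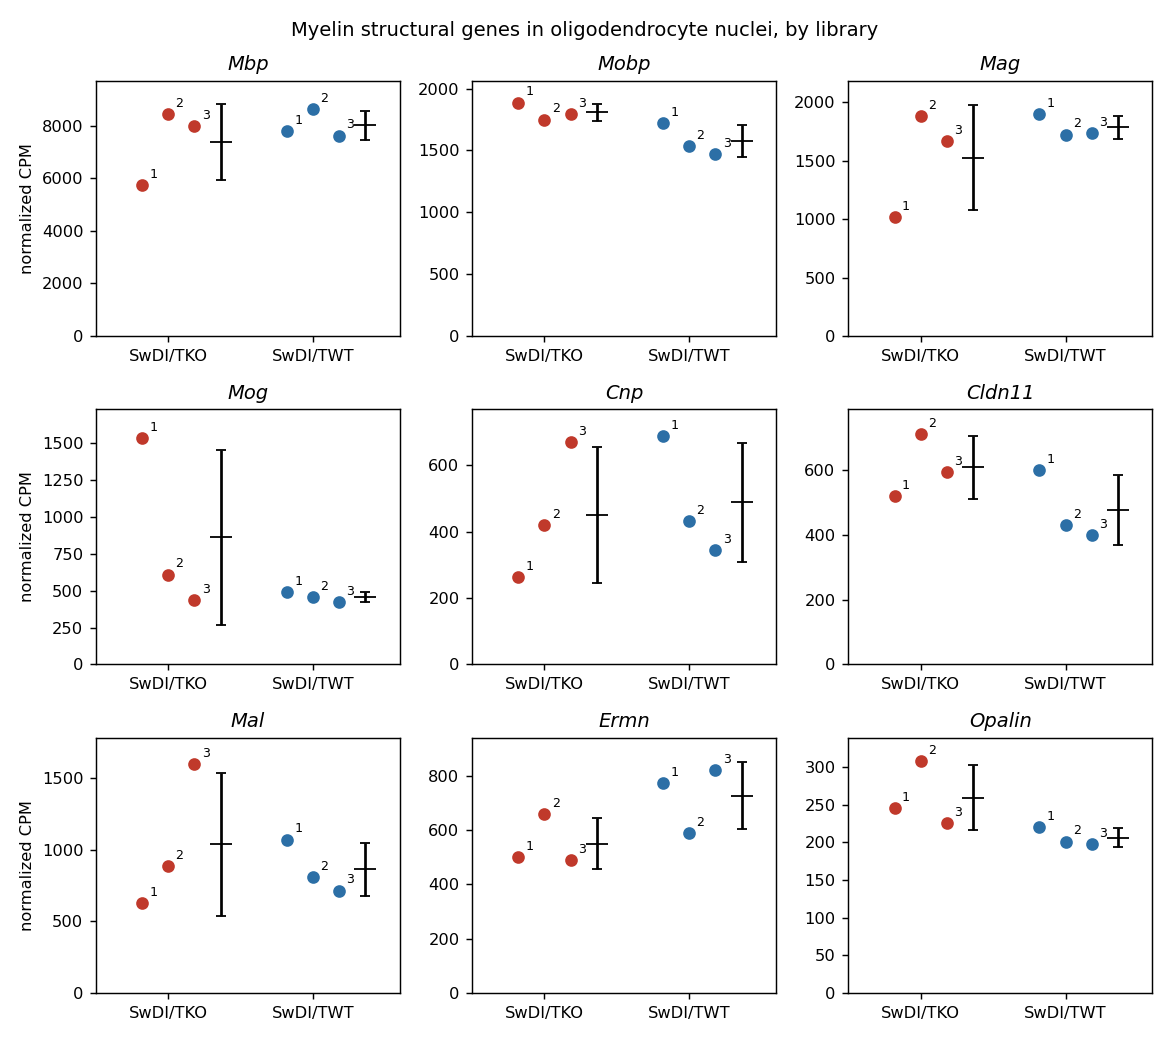
Normalized CPM of the 9 myelin genes in oligodendrocyte nuclei, 1 panel per gene with its own axis from 0. Points are libraries (3 SwDI/TKO at left, 3 SwDI/TWT at right), and bars with whiskers are the mean and SD; SwDI/TKO replicate 1 carries the high Mog value (1537 CPM, against 422 to 609 CPM in the other 5 libraries).

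Among the proteins of compact myelin, Mbp had 5739, 8432 and 7984 normalized CPM in SwDI/TKO oligodendrocytes and 7785, 8634 and 7620 in SwDI/TWT oligodendrocytes. SwDI/TKO replicate 1 was the lowest of the 6 and the other 5 overlapped, with means of 7385 ± 1443 in SwDI/TKO and 8013 ± 544 in SwDI/TWT (SD, n = 3 each). The log2 fold change of Mbp was −0.12 ± 0.31 (SE; adjusted p = 0.964, edgeR) and 0.01 without SwDI/TKO replicate 1. Mobp had 1887, 1750 and 1793 normalized CPM in SwDI/TKO and 1718, 1534 and 1468 in SwDI/TWT oligodendrocytes. All 3 SwDI/TKO libraries lay above all 3 SwDI/TWT libraries for Mobp, as for 5.35% of all genes tested, and its fold change of 0.20 ± 0.27 (log2, SE) did not pass the test (adjusted p = 0.916, edgeR).

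Mag, the adhesion molecule of the innermost wrap, had 1020, 1881 and 1666 normalized CPM in SwDI/TKO and 1898, 1723 and 1732 in SwDI/TWT oligodendrocytes. Its groups overlapped, again with SwDI/TKO replicate 1 lowest, and its log2 fold change was −0.23 ± 0.31 (SE; adjusted p = 0.920, edgeR). Mog, on the outer surface, had 1537, 609 and 435 normalized CPM in SwDI/TKO and 491, 456 and 422 in SwDI/TWT oligodendrocytes. The value of SwDI/TKO replicate 1 stood alone, and SwDI/TKO replicate 3 fell within the SwDI/TWT range. Mog had the largest fold change of the 9, 0.92 ± 0.44 (log2, SE), at an unadjusted p of 0.0654 and an adjusted p of 0.769 in edgeR. It was 0.18 ± 0.22 without SwDI/TKO replicate 1. Leaving out SwDI/TKO replicate 2 or 3 gave Mog an unadjusted p of 0.0447 or 0.0124 (edgeR). In those 2 fits 901 of 8005 and 1128 of 8117 genes had an unadjusted p under 0.05. With all 6 libraries, the unadjusted p of Mog was 0.0189 with no filter on low counts and 0.0473 with doublets kept (edgeR). There 1566 of 19607 and 565 of 8876 genes had an unadjusted p under 0.05. None of these Mog values passed the threshold after adjustment.

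Cnp, the enzyme of uncompacted myelin, had 263, 420 and 671 normalized CPM in SwDI/TKO and 689, 432 and 344 in SwDI/TWT oligodendrocytes. Both groups ran over nearly the same range, and the log2 fold change of −0.12 ± 0.40 (SE; adjusted p = 0.969, edgeR) became 0.13 without SwDI/TKO replicate 1 and 0.22 without SwDI/TWT replicate 1. Cldn11, the tight junction claudin of myelin, had 520, 712 and 596 normalized CPM in SwDI/TKO and 600, 430 and 399 in SwDI/TWT oligodendrocytes. SwDI/TWT replicate 1 lay among the SwDI/TKO values, and the fold change was 0.35 ± 0.29 (log2, SE; adjusted p = 0.844, edgeR).

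Mal, the sorting proteolipid, had 629, 885 and 1595 normalized CPM in SwDI/TKO and 1069, 807 and 715 in SwDI/TWT oligodendrocytes. Both the lowest and the highest of the 6 values were SwDI/TKO libraries, and the log2 fold change of 0.26 ± 0.38 (SE; adjusted p = 0.930, edgeR) became −0.18 without SwDI/TKO replicate 3. Ermn, the actin-binding protein of the sheath, had 502, 659 and 489 normalized CPM in SwDI/TKO and 773, 589 and 821.5 in SwDI/TWT oligodendrocytes. SwDI/TKO replicate 2 overlapped the SwDI/TWT range, and Ermn had the lowest fold change of the 9, −0.40 ± 0.29 (log2, SE; adjusted p = 0.814, edgeR). Opalin, the marker of mature oligodendrocytes, had 245, 308 and 225 normalized CPM in SwDI/TKO and 220.04, 201 and 198 in SwDI/TWT oligodendrocytes. It was the second gene, after Mobp, whose groups did not overlap, with a fold change of 0.33 ± 0.27 (log2, SE; adjusted p = 0.839, edgeR).

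Without SwDI/TKO replicate 1, which left the 5 libraries of 1 Cell Ranger version, 1 of 8028 genes was called in oligodendrocytes (0.0125%), and it was not one of the 9, none of which had an unadjusted p under 0.05 where 2.72% of all genes did. Of the 9, 7 were then higher in SwDI/TKO and the median log2 fold change was 0.15. Mobp was the one gene whose 5 remaining values did not overlap, higher in SwDI/TKO as for 8.12% of genes (8.55% were lower in that way); Opalin in SwDI/TKO replicate 3 then lay just under SwDI/TWT replicate 1, at 222.6 and 222.8 normalized CPM.

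Counted per nucleus instead of as CPM, 4 of the 9 genes lay higher in every SwDI/TKO library than in every SwDI/TWT library. Mbp gave 8.41, 7.89 and 7.07 UMIs per SwDI/TKO oligodendrocyte nucleus and 6.36, 6.98 and 5.93 per SwDI/TWT nucleus. Mobp gave 2.76, 1.64 and 1.59 UMIs per nucleus in SwDI/TKO and 1.40, 1.24 and 1.14 in SwDI/TWT oligodendrocytes. Cldn11 (0.76, 0.67 and 0.53 in SwDI/TKO and 0.49, 0.35 and 0.31 in SwDI/TWT) and Opalin (0.36, 0.29 and 0.20 in SwDI/TKO and 0.18, 0.16 and 0.15 in SwDI/TWT) were the other two, and the remaining 5 overlapped. Of all 7557 genes, 17.5% were higher in this way and 0.437% lower, and the same 4 genes stayed apart without SwDI/TKO replicate 1, as did 20.1% of genes in the higher direction. Median UMIs per oligodendrocyte nucleus over all genes were 1598, 870.5 and 818 in SwDI/TKO and 794, 775.5 and 821 in SwDI/TWT. SwDI/TWT replicate 3 had the lowest UMIs per nucleus of all 4 genes at a median depth like that of SwDI/TKO replicate 3. The part of depth in these 4 differences was not tested.

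Nearly every oligodendrocyte nucleus carried Mbp. A UMI of Mbp was seen in 99.3% to 99.9% of SwDI/TKO and in 99.6% of SwDI/TWT oligodendrocyte nuclei of each library, and at least 5 UMIs of the 9 genes together in 97.3% to 98.6% of SwDI/TKO and 94.5% to 96.6% of SwDI/TWT nuclei. Mog was seen in 83.0%, 42.6% and 31.2% of SwDI/TKO and in 32.1%, 29.8% and 27.6% of SwDI/TWT oligodendrocyte nuclei. With each nucleus thinned to 500 UMIs, which left out no oligodendrocyte nucleus, the Mog shares were 21.0% to 46.0% in SwDI/TKO and 18.7% to 20.8% in SwDI/TWT, and SwDI/TKO replicate 1 was still the highest. For Mbp the thinned share was 87.8% in SwDI/TKO replicate 1, below the 96.4% to 97.9% of the other 5 libraries. At 1 depth per nucleus, then, that library was high in Mog and low in Mbp.

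The 9 genes did not move together in SwDI/TKO replicate 1. Set against the mean of the other 5 libraries in UMIs per oligodendrocyte nucleus, its ratio was 5.48 for Mog, 1.97 for Mobp, 1.83 for Opalin and 1.63 for Cldn11. It was 1.31 for Ermn, 1.23 for Mbp, 1.07 for Mal, 0.99 for Mag and 0.89 for Cnp. The median ratio over 7514 genes was 1.57, with quartiles of 1.11 and 2.51, so 4 of the 9 lay above the median. Of all these genes 6.33% had a ratio as high as that of Mog or higher. Within the larger cluster alone, Mog reached 155 UMIs per 100 nuclei in the 139 nuclei of this library, against 32.5 to 57.3 in the other 5, so it was high in both clusters. By annotation Mbp has 102023 intron bases, the most of the 9, Ermn 4117, the fewest, and Mog 10952. Whether intronic reads were counted in either version is not stated in the labels used.

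**Figure D2:**
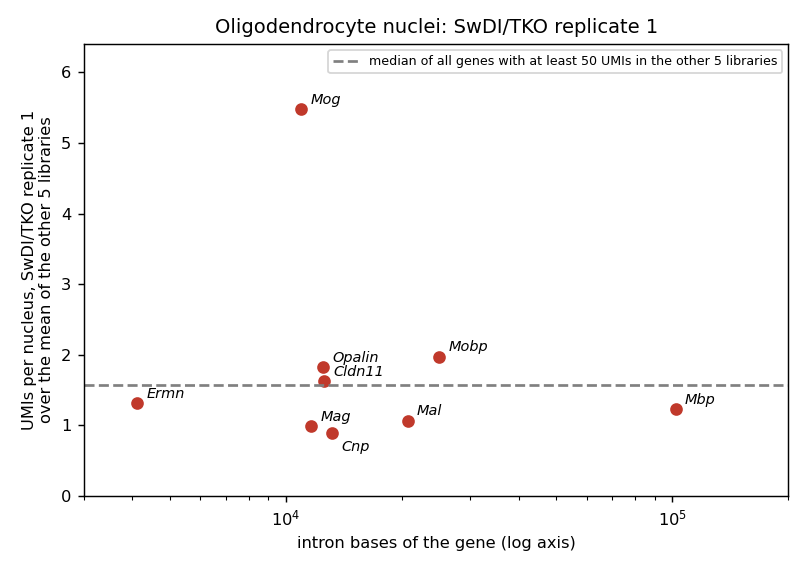
Ratio of SwDI/TKO replicate 1 to the mean of the other 5 libraries in UMIs per oligodendrocyte nucleus, against annotated intron bases on a log axis, for the 9 genes. Mog lies at 5.48 and Mbp, with the most intron bases, at 1.23; the line marks the median of 1.57 over 7514 genes.

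Other genes of the myelin programme were described from 4 lists. Of the genes named from them, Tspan2, Gjb1, Ugt8a, Aspa, St18 and Nkx6-2 were also among the markers that named oligodendrocytes. No gene of any list was called in oligodendrocytes by edgeR, and 3 had an unadjusted p under 0.05, 2 of the sheath list and 1 transcription factor, where 6.22% of all genes tested did. None was called without SwDI/TKO replicate 1, and 1 of the sheath list and 2 transcription factors had an unadjusted p under 0.05, where 2.72% of all genes did. Of 14 other proteins of the sheath and its junctions, 7 were higher and 7 lower in SwDI/TKO, with a median log2 fold change of 0.03, and without SwDI/TKO replicate 1 the split was again 7 and 7, with a median of −0.008. The 3 with the smallest p were Ninj2, an adhesion protein, Tspan2, a tetraspanin of myelin, and Gjb1, a connexin of the sheath. Tspan2 had 621, 415 and 459 normalized CPM in SwDI/TKO and 318, 287 and 333 in SwDI/TWT oligodendrocytes, with no overlap, as for 5.35% of all genes in that direction, and its fold change of 0.67 ± 0.28 (log2, SE) had an adjusted p of 0.769 in edgeR. Gjb1 had 51.0, 88.3 and 73.4 normalized CPM in SwDI/TKO and 102, 122 and 102 in SwDI/TWT oligodendrocytes, lower without overlap as for 4.41% of all genes (−0.63 ± 0.30, log2, SE; adjusted p = 0.769, edgeR). Ninj2 had 451, 36.8 and 36.7 normalized CPM in SwDI/TKO and 23.6, 24.5 and 26.7 in SwDI/TWT oligodendrocytes, so its log2 fold change of 2.84 became 0.53 without SwDI/TKO replicate 1.

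Of 6 genes of myelin lipid synthesis, 4 were higher and 2 lower, with a median of 0.13 (3 and 3, with a median of 0.07, without SwDI/TKO replicate 1). The smallest p belonged to Gal3st1, which sulfates galactolipids (0.29 ± 0.32), Ugt8a, which makes galactosylceramide (0.22 ± 0.29), and Aspa, which releases acetate from N-acetylaspartate (0.22 ± 0.33), as log2 fold changes with SE. Of 9 tested among 10 transcription factors of the lineage, 3 were higher and 6 lower, with a median of −0.04 (4 and 5, with a median of −0.09, without SwDI/TKO replicate 1). St18, a zinc finger factor, had 4131, 414 and 334 normalized CPM in SwDI/TKO and 375, 316 and 244 in SwDI/TWT oligodendrocytes, another value carried by SwDI/TKO replicate 1, and its log2 fold change of 2.39 became 0.24 without that library. Nkx6-2, a homeobox factor of myelinating cells, had a log2 fold change of −0.39 ± 0.33 and Olig1, a basic helix-loop-helix factor, one of 0.34 ± 0.35 (SE). Of 6 genes of cytoskeleton and transport, 4 were higher and 2 lower, with a median of 0.09 (3 and 3, with a median of 0.01, without SwDI/TKO replicate 1). Fyn, a kinase that acts on local Mbp translation, had 1.09 ± 0.54 and Tubb4a, a tubulin, 0.63 ± 0.46 (log2, SE). Hnrnpa2b1, which binds Mbp mRNA in transport, had −0.31 ± 0.33 (log2, SE). Apart from St18, single genes of these 3 lists are given with all 6 libraries only. How far Fyn and Tubb4a rest on SwDI/TKO replicate 1 is therefore not shown.

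Oligodendrocytes were set apart from the 6 other classes that reached 20 nuclei in each library (precursors, astrocytes, microglia, and excitatory, inhibitory and striatal projection neurons) for each of the 9 genes and for their sum. In UMIs per 100 nuclei the lowest oligodendrocyte library lay above the highest library of any of those 6 classes. Smaller classes were not compared, and in committed or newly formed oligodendrocytes, of 54 nuclei in all, Mbp reached 687.5 UMIs per 100 nuclei in the 8 nuclei of SwDI/TKO replicate 3. Mbp had at least 593 UMIs per 100 oligodendrocyte nuclei, against at most 53.6 in the 6 classes, in excitatory neurons of SwDI/TKO replicate 1, and at most 21.8 in those classes of the other 5 libraries. Ermn was set apart the most, with at least 43.3 UMIs per 100 oligodendrocyte nuclei against at most 1.87 in the 6 classes, a ratio of 23.2. Cnp was set apart the least, with at least 26.8 per 100 oligodendrocyte nuclei against at most 10.0 in the 6 classes, again in excitatory neurons of SwDI/TKO replicate 1, a ratio of 2.68. The other ratios of the lowest oligodendrocyte library to the highest library of the 6 classes were 13.03 for Mag, 11.1 for Mbp, 11.05 for Mobp, 9.78 for Mog, 8.24 for Opalin, 6.91 for Mal and 5.44 for Cldn11. These are descriptions, since the classes were made from the same nuclei.

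**Figure D3:**
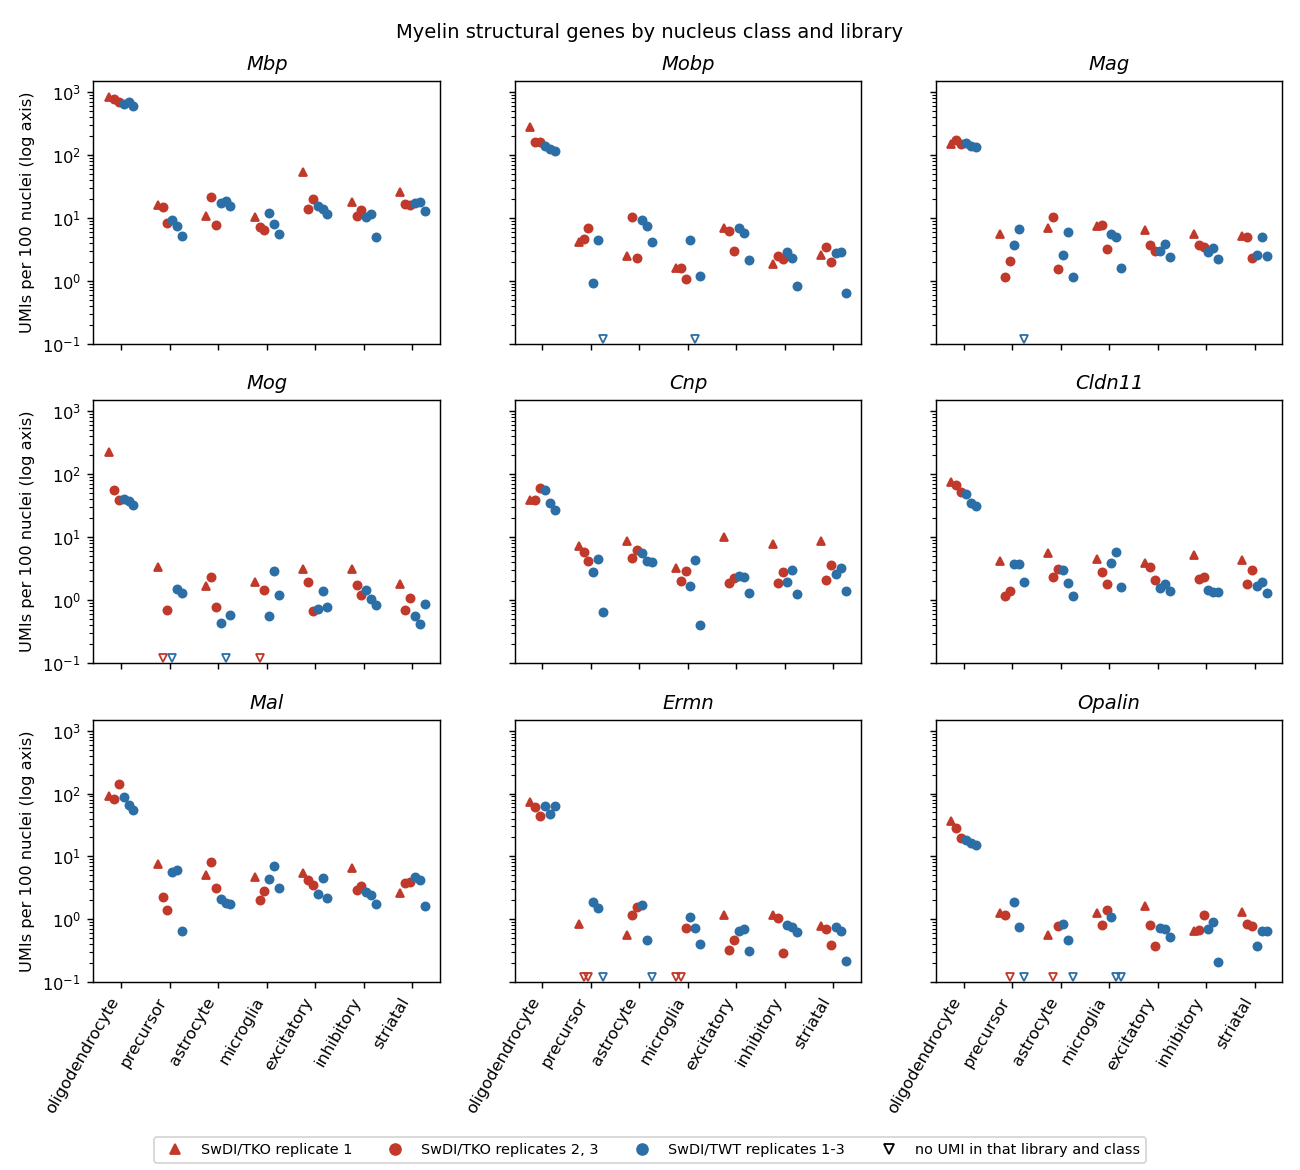
UMIs per 100 nuclei of each of the 9 genes in 7 classes of nuclei, on a log axis with open triangles at the bottom edge where no UMI was seen. Points are libraries, SwDI/TKO left of SwDI/TWT within a class (replicate 1 of SwDI/TKO as a filled triangle); oligodendrocytes stand above the 6 other classes drawn for every gene (Mbp at least 593 against at most 53.6).

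Among the 6 classes beneath oligodendrocytes, neighbours in rank were not separated. Ranked by their median over the 6 libraries, the summed 9 genes gave 1307 UMIs per 100 oligodendrocyte nuclei, 41.3 per 100 astrocytes, 35.0 per 100 excitatory neurons, 34.4 per 100 striatal projection neurons, 30.5 per 100 oligodendrocyte precursors, 28.8 per 100 microglia and 27.0 per 100 inhibitory neurons. Of the 50 neighbouring pairs below oligodendrocytes (9 genes and their sum), 0 were separated, either in UMIs per 100 nuclei or in CPM. Classes further apart in rank were not compared. In CPM the order changed, with microglia next to oligodendrocytes (297 CPM for the sum, against 14621 CPM) and excitatory neurons last (96.8 CPM). Precursors of the lineage were thus not separated from those of the 6 classes next to them in rank, for these genes at this depth. Whether they stood above any class further away in rank was not examined.

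Carry-over, the level in another class as a percentage of the level per oligodendrocyte nucleus in the same library, was small for most genes. Over the 30 pairs of 6 other classes and the 5 libraries of 1 Cell Ranger version, the median was 1.89% for Mbp, with a range of 0.846% to 2.79%, and 2.40% for the sum of the 9, with a range of 0.906% to 4.16%. Mobp had a median of 1.94%, Mag of 2.05%, Mog of 2.44% and Ermn of 1.11%. Mal had 3.17%, Opalin 3.61% and Cldn11 4.41%. Cnp was the highest, with a median of 5.17% and a range of 1.49% to 15.2%. Here and below, counts of Cnp may include reads of Dnajc7 on the opposite strand, which was not tested. In each library 83.4% to 89.0% of the UMIs that the 9 genes had in these 7 classes lay in oligodendrocytes, 84.3% in SwDI/TKO replicate 1, while for Cnp it was 47.5% in SwDI/TKO replicate 1 and 64.7% to 78.0% in the other 5.

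**Figure D4:**
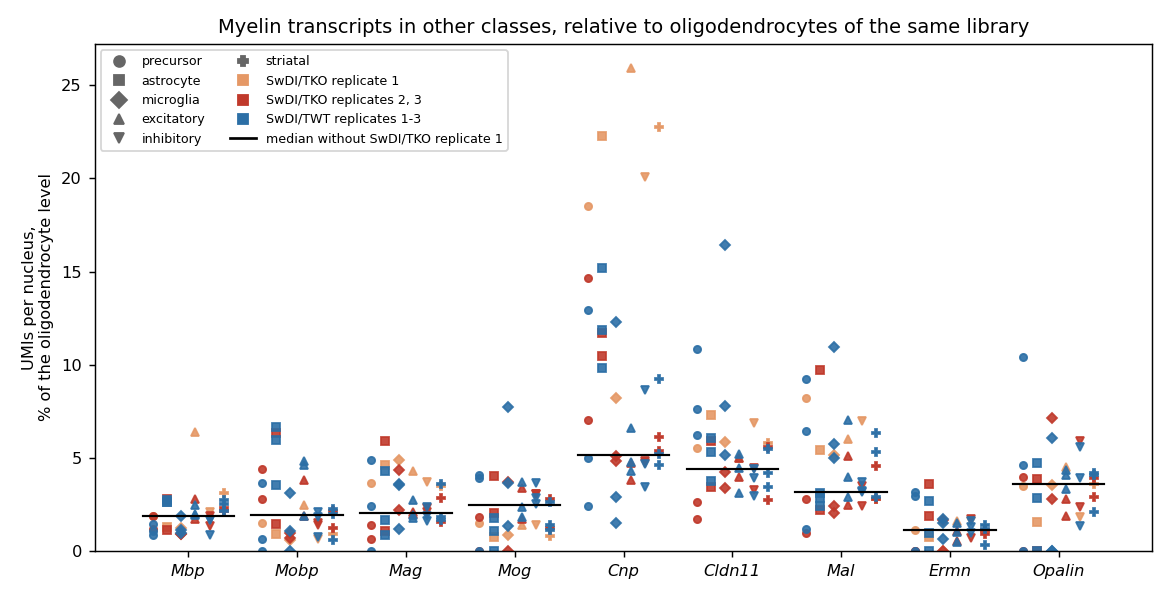
Level of each gene in 6 other classes as a percentage of its level per oligodendrocyte nucleus in the same library, on a linear axis from 0. Points are pairs of class (marker shape) and library (colour), and lines are medians without SwDI/TKO replicate 1; the 5 libraries of 1 Cell Ranger version have medians of 1.11% for Ermn to 5.17% for Cnp, and the excitatory neurons of SwDI/TKO replicate 1 reach 25.9% for Cnp.

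In excitatory neurons the sum of the 9 stood at 5.09%, 2.46% and 2.55% of the oligodendrocyte level in SwDI/TKO and at 2.73%, 2.92% and 2.11% in SwDI/TWT, with a mean over the 6 libraries of 2.98% ± 1.07 and, without SwDI/TKO replicate 1, of 2.56% ± 0.307 (SD). In microglia the sum stood at 1.93%, 1.64% and 1.59% in SwDI/TKO and at 2.76%, 2.80% and 1.42% in SwDI/TWT, a mean of 2.03% over the 6 libraries that became 3.38% with doublets kept. Neither class separated the genotypes. In UMIs, the sum of the 9 gave 34.9, 24.1 and 21.8 per 100 SwDI/TKO microglia and 34.4, 33.6 and 15.1 per 100 SwDI/TWT microglia. SwDI/TWT replicate 3 was the lowest of the 6 libraries in microglia, precursors, excitatory, inhibitory and striatal projection neurons, and it was also the lowest in oligodendrocytes, at 1068 UMIs of the 9 per 100 nuclei.

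Most nuclei of the 6 other classes held none of the 9. In excitatory neurons 50.6%, 72.5% and 73.2% of SwDI/TKO nuclei and 75.2%, 75.2% and 81.8% of SwDI/TWT nuclei had no UMI of any of them. At least 5 UMIs were found in at most 1.91% of the nuclei of any of the 6 classes in any library. Before thinning, a Mbp UMI was found in 11.3% to 31.8% of SwDI/TKO and 9.74% to 11.5% of SwDI/TWT excitatory neurons, and in 6.07% to 9.21% of SwDI/TKO and 3.59% to 5.46% of SwDI/TWT microglia. After thinning to 500 UMIs the range over the 6 other classes and all libraries was 1.04% to 6.81%, against 87.8% to 97.9% in oligodendrocytes. Excitatory neurons of SwDI/TKO replicate 1 were then at 2.46%, still the highest of the class but close to the 1.49% to 2.35% of the other 5 libraries.

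The mix of the 9 genes differed from that in oligodendrocytes for some genes and classes and overlapped it for others. Mbp made up 51.1% to 58.3% of the UMIs of the 9 in oligodendrocytes of the 5 libraries of 1 Cell Ranger version, against 23.4% to 36.8% in microglia and 35.6% to 44.4% in inhibitory neurons. Cnp made up 2.51% to 4.52% in oligodendrocytes, against 7.55% to 22.9% in astrocytes, 6.93% to 11.3% in inhibitory neurons and 6.67% to 18.5% in precursors. Cldn11 made up 2.90% to 4.55% in oligodendrocytes and 8.20% to 17.0% in microglia. For these classes, named after their values were seen, the share of the gene did not overlap that in oligodendrocytes. The share of Mbp did overlap it in the other 4 classes, at 28.6% to 55.1% in astrocytes, 20.4% to 53.3% in precursors, 38.0% to 56.4% in excitatory and 47.6% to 58.1% in striatal projection neurons. Ermn went the other way, with 3.16% to 5.99% in oligodendrocytes and 0.895% to 2.03% in excitatory neurons. Many of these shares rest on few UMIs, since the microglia of each of these 5 libraries held 38 to 63 UMIs of the 9 in all.

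SwDI/TKO replicate 1 differed most from the rest in Cnp and Mbp outside oligodendrocytes. Cnp gave 10.0, 1.86 and 2.27 UMIs per 100 SwDI/TKO excitatory neurons and 2.43, 2.29 and 1.28 per 100 SwDI/TWT excitatory neurons. As a percentage of the oligodendrocyte level, Cnp over the 6 other classes together stood at 22.5% in SwDI/TKO replicate 1 and 4.23% to 8.34% in the other 5 libraries. Mbp gave 53.6, 13.7 and 19.7 UMIs per 100 SwDI/TKO excitatory neurons and 15.7, 14.0 and 11.5 per 100 SwDI/TWT excitatory neurons. Median UMIs per nucleus over all nuclei were 5310 in this library and 1445 to 2465 in the other 5, and the part of depth in these values was not tested. By CPM the same neurons of SwDI/TKO replicate 1 had 76.3 normalized CPM of Mbp and 14.2 of Cnp, still the highest of the 6 libraries, where the other 5 had 34.6 to 45.4 and 4.27 to 7.44.

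Most of the 2151 excitatory nuclei of that library lay in 1 cluster, which drew 1243 of its 1257 nuclei from it. There Mbp gave 67.7 UMIs per 100 nuclei and the other 8 genes together 39.2, at a median of 9107 UMIs per nucleus. In the next largest excitatory cluster of the same library, with 508 nuclei at a median of 7527 UMIs, Mbp gave 21.3 and the other 8 genes 27.2 UMIs per 100 nuclei. Leaving out nuclei with UMIs of at least 3 oligodendrocyte markers, which was chosen after seeing the data, left 67.1 and 38.5 in the first of these clusters and 21.3 and 27.4 in the second. In another cluster, of 259 nuclei, the same step lowered both values, to 21.6 for Mbp and 26.6 for the other 8 genes, against 37.8 for each with all nuclei.

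**Figure D5:**
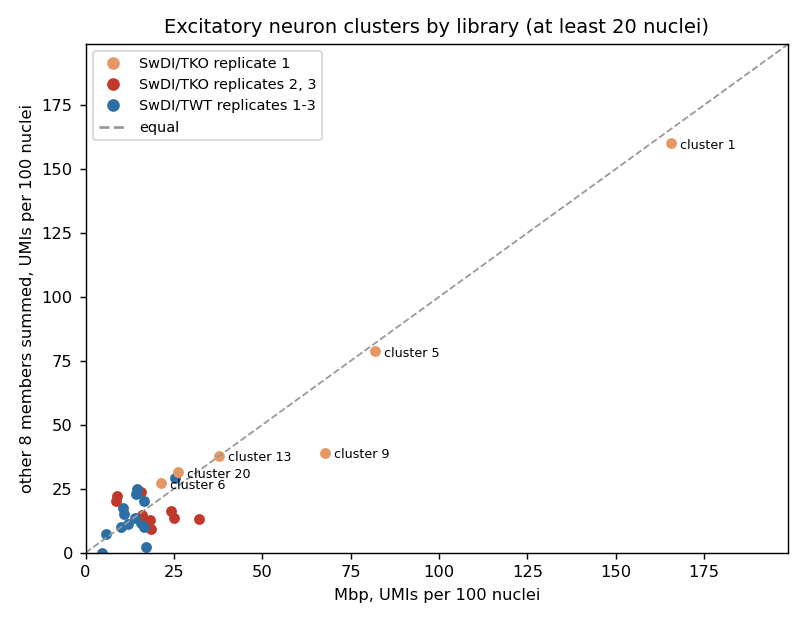
UMIs per 100 nuclei of Mbp (horizontal axis) and of the other 8 genes together (vertical axis) in clusters of excitatory neurons, 1 point per cluster and library with at least 20 nuclei, with a dashed line where both are equal. The cluster of 1243 nuclei of SwDI/TKO replicate 1 lies at 67.7 for Mbp and 39.2 for the other 8; 2 clusters of 33 and 35 nuclei of the same library lie highest in both.

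Genotype was then tested for the 9 genes in each other class, with the same edgeR test. The filter on low counts left 8 of the 9 in excitatory neurons, 7 in inhibitory neurons, 6 in striatal projection neurons, 2 each in astrocytes and microglia and 1 in precursors. None was called by edgeR in any class, where the share of all genes called was 0% in each of the 6. None had an unadjusted p under 0.05 either, where 4.41% of all genes did in excitatory, 3.94% in inhibitory and 4% in striatal projection neurons, 8.11% in astrocytes, 6.38% in microglia and 6.64% in precursors. DESeq2 called none of the 9 either. The widest difference was in astrocytes, for the 2 proteins of compact myelin: Mbp had 53.4, 170 and 59.7 normalized CPM in SwDI/TKO astrocytes and 159, 167 and 139 in SwDI/TWT astrocytes (log2 fold change −0.83 ± 0.48, SE, adjusted p = 0.623, edgeR), and Mobp had 12.3, 80.5 and 17.9 in SwDI/TKO and 85.4, 66.9 and 36.1 in SwDI/TWT (−1.28 ± 0.67, adjusted p = 0.605). Of the SwDI/TKO libraries, replicates 1 and 3 were low and replicate 2 lay with or above the SwDI/TWT libraries. SwDI/TKO replicate 2 had 87 astrocytes, and 1 of them held 24.5% of their UMIs of the 9. UMIs of at least 3 oligodendrocyte markers were in 13.8% of them. That share was 7.23% in SwDI/TWT replicate 1 and 0.775% to 2.22% in the other libraries. In the remaining classes the log2 fold changes ran from −0.48 to 0.24 in microglia, −0.53 to 0.37 in excitatory neurons, −0.45 to 0.47 in inhibitory neurons and −0.48 to 0.29 in striatal projection neurons, and Mbp in precursors had 0.25 ± 0.43, which turned to −0.02 without SwDI/TKO replicate 2 and to −0.26 with doublets kept, and was 0.08 without SwDI/TWT replicate 3. Leaving out other libraries brought some of the 9 to an unadjusted p under 0.05 in edgeR, with none called. These were 2 of 3 tested in astrocytes without SwDI/TKO replicate 2, where 612 of all 4813 genes did so. In microglia without SwDI/TWT replicate 3 it was 1 of 4, where 194 of all 4809 genes did so. With doublets kept, 1 of 3 did so in astrocytes (477 of all 5715 genes) and 1 of 3 in microglia (308 of all 5087). With no filter on low counts, 1 of 9 did so in astrocytes (1658 of all 18476 genes). Without SwDI/TKO replicate 1, 2 of the positive fold changes in excitatory neurons turned negative, Mbp at −0.18 and Cnp at −0.40, against 0.24 ± 0.34 and 0.37 ± 0.53 with it, and the astrocyte values became −0.54 for Mbp and −0.55 for Mobp. In inhibitory neurons Mbp turned to 0.14 from −0.03, Mag to 0.13 from −0.03 and Cnp to −0.07 from 0.18 in the same way, and in striatal projection neurons Cnp turned to −0.15 from 0.29 and Mobp to 0.01 from −0.12. The make-up of these neuron classes differed between libraries. A striatal cluster with 374 of the 387 striatal nuclei of SwDI/TKO replicate 1 had 0 from any other library. The largest inhibitory cluster gave 64 of 763, 754 of 1322 and 77 of 678 inhibitory nuclei in SwDI/TKO libraries. In SwDI/TWT libraries it gave 1185 of 1857, 98 of 663 and 147 of 957. The part of make-up in the fold changes was not tested.

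Microglia, the class that expresses Trem2, were of interest for engulfed myelin transcripts. Mbp had 94.8, 107 and 102 normalized CPM in SwDI/TKO microglia and 199.6, 134 and 91.8 in SwDI/TWT microglia. SwDI/TWT replicates 1 and 2 were above the SwDI/TKO libraries and replicate 3 below them, with a log2 fold change of −0.48 ± 0.38 (SE; adjusted p = 0.837, edgeR). No SwDI/TKO nucleus held more than 4 UMIs of the 9 genes. In SwDI/TWT replicate 1, 2 nuclei held 33.3% of the UMIs of the 9. In SwDI/TWT replicates 2 and 3, 1 nucleus each held 19.1% and 13.2%. The part of these nuclei in the Mbp levels was not tested. Mbp was seen in a larger share of SwDI/TKO (9.21%, 6.83% and 6.07%) than SwDI/TWT microglia (5.46%, 4.29% and 3.59%). After thinning as above the shares overlapped (4.13%, 3.21% and 4.64% against 5.46%, 4.29% and 2.39%). Mag had 66.1, 113 and 50.8 normalized CPM in SwDI/TKO and 90.7, 85.2 and 26.2 in SwDI/TWT microglia, which overlapped (0.24 ± 0.52, log2, SE; adjusted p = 0.942). The other 7 genes were below the filter in this class. Without SwDI/TKO replicate 1, Mal passed the filter, with 29.5 and 44.1 normalized CPM in SwDI/TKO and 70.8, 118 and 51.6 in SwDI/TWT microglia. Those values did not overlap, as for 9.76% of genes in the lower direction, and the fold change of −1.02 ± 0.59 (log2, SE) did not pass edgeR's test (adjusted p = 0.928), which called 0.0453% of all genes there.

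Whether the genotype effect differed between excitatory neurons and oligodendrocytes was tested as an interaction with the mouse as a block. None of 14052 genes was called (0%), and 672 (4.78%) had an unadjusted p under 0.05. Of the 9 genes 0 were called and 0 had an unadjusted p under 0.05. Mog had a difference of −0.76 ± 0.42 and Mobp of −0.75 ± 0.37 (log2, excitatory neurons minus oligodendrocytes, SE), both at an adjusted p of 1 in edgeR, with an unadjusted p of 0.0533 for Mobp. Cnp had 0.52 ± 0.50. Without SwDI/TKO replicate 1, 2 genes (0.0148%) were called, none of the 9, and 3.6% had an unadjusted p under 0.05. Without SwDI/TKO replicate 3, 170 genes (1.16%) were called and 8.21% had an unadjusted p under 0.05, Cnp among them at 1.15 ± 0.30 (adjusted p = 0.0177, edgeR), and all 9 were short of the threshold when any other library was left out.

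By profile over classes, genes most like the summed 9 were ranked by Pearson correlation over 42 profiles (7 classes in 6 libraries, log2(CPM + 1), 16051 candidate genes). Among the highest were Gm43242 (0.95), Adipor2, an adiponectin receptor (0.94), Apod, an apolipoprotein (0.93), Gm16233, Gm42756, Anln, A530053G22Rik, Nipal4 and Gm26747 (0.93 each). The 9 themselves had correlations with their sum, which contains them, of 0.88 for Mog to 0.99 for Mbp. The profiles of a library share its depth. Apod was also among the markers that named oligodendrocytes.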

How the data were processed

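Nuclei of 6 frontal lobes were profiled with droplet-based 3′ chemistry, per the labels' protocols. The authors deposited raw UMI counts per gene and barcode, 1 matrix per library, made by Cell Ranger 7.0.0 in SwDI/TKO replicate 1 and 6.1.2 in the other 5 libraries, per the file headers. Seurat and mm10 are also listed in the submitters' processing notes. How introns, strand and annotation were handled is not stated there. Total counts per library ran from 11493087 to 51317961, and counting error is smallest for the deepest.

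Of 39752 barcodes, 34281 passed a minimum of 200 genes and a limit of 5% mitochondrial UMIs, and 1273 doublets called by Scrublet (expected rate 6%) were removed. Nuclei were clustered in scanpy 1.11.5 with the 9 genes left out. Settings were 2000 variable genes, scaling within libraries, 30 principal components, 15 neighbours, Leiden resolution 1, leidenalg 0.10.2 and seed 1. Of 28 clusters, those that passed were named from markers (at least 3 markers at a mean log2 fold of 0.8, with further limits on top genes). A class name therefore stands for nuclei that resemble the class by these markers. Clusters that did not pass stayed unnamed and were in none of the classes compared. Unnamed nuclei numbered 1762, 116 and 320 in SwDI/TKO and 277, 576 and 569 in SwDI/TWT libraries. The clustering and naming settings were chosen with the data in hand. Counts were summed by class within each library, and classes reaching 20 nuclei in all 6 libraries were tested with edgeR 4.0.16 (TMM, filterByExpr, quasi-likelihood, two-sided, Benjamini-Hochberg, threshold 0.05) in R 4.3.3 with limma 3.58.1, with DESeq2 1.42.0 as an alternative. The test scripts were tested on simulated data. The text names all 9 genes, the 3 genes of each pathway list with the smallest p, and the 10 most similar profiles among genes with at least 100 UMIs. One gene that falls under this rule is not reported here. The genes, lists and tests were chosen with earlier results of these data known. Samples were grouped by the genotype in their labels. Replicates are separate mice, numbered in accession order, which pairs none. Figures were drawn with matplotlib 3.10.9, and Python 3.11.15 ran scikit-learn 1.9.0, scipy 1.17.1, numpy 2.4.6 and pandas 2.3.3. Alternatives were other normalization, filter, test, marker gate (3 markers), doublets kept, a 2% mitochondrial limit and each library left out. For oligodendrocytes the larger cluster alone was a further alternative, which had not been planned.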

Additional observations from a re-analysis of the deposited data

How the results depend on the processing

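No paired analysis was possible because the replicate numbers follow accession order and pair no mice. Of 117 fold changes of the 9 genes in oligodendrocytes under 13 alternatives, 112 kept their direction and 5 reversed, with none past the threshold: Mbp to 0.014 without SwDI/TKO replicate 1 (range −0.23 to 0.014 with a library left out) and to 0.011 with doublets kept, Cnp to 0.13 without SwDI/TKO replicate 1 and 0.22 without SwDI/TWT replicate 1 (range −0.51 to 0.22), and Mal to −0.18 without SwDI/TKO replicate 3 (range −0.18 to 0.495). The cause was not tested. Mog ran from 0.18 to 1.26 over the alternatives, the widest range of the 9. The count of all genes called in oligodendrocytes, 0 in the fit as reported, was 310 with no filter on low counts and 0 to 1 with a library left out, none of them among the 9. The count of the 9 called in the interaction was 0 to 1 with a library left out, and all genes called there numbered 0 as reported, 1 with other size factors, 38 with no filter and 0 to 170 with a library left out. Carry-over of the 9 into microglia was 3.38% with doublets kept and 2.03% as reported, and into excitatory neurons it was 2.56% to 3.15% with a library left out. The difference in oligodendrocyte share kept its sign, at 2.83 to 3.61 percentage points with a library left out (p = 0.2, the smallest the exact permutation test then allows) and 4.93 with the 2% mitochondrial limit. Shallow classes limit the rest: precursors, astrocytes and microglia had counts for 1 or 2 of the 9 genes above the filter.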

Other observations

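A cluster of 54 nuclei with markers of committed or newly formed oligodendrocytes (7, 29 and 8 nuclei in SwDI/TKO libraries and 6, 2 and 2 in SwDI/TWT libraries) held part of the myelin programme. Mbp had 150 UMIs in 24 of these nuclei, Mag 19 and Cnp 15. Mobp had 9 UMIs, all in 1 nucleus, and Cldn11 had 7, Mog 5 and Mal 4. Ermn and Opalin had 0 UMIs in the 54 nuclei, which allows a share of nuclei with a UMI of up to 5.56% for counting error alone. Opalin and Ermn were thus the 2 genes of the 9 not seen in this cluster, which held too few nuclei for a test between genotypes.

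Single genes of the 9 also stood out in small clusters outside the oligodendrocyte lineage, chosen after their values were seen. In an unnamed cluster of 109 nuclei led by Mgp, Slc47a1 and Foxd1, Cldn11 had 23 UMIs in 20 nuclei, more than Mbp with 18 in 10 nuclei, while Ermn had 0, which allows a share of up to 2.75%. In 31 endothelial nuclei, Mal had 16 UMIs in 10 nuclei, where Mbp had 2 UMIs and Mag, Mog and Opalin had 0, which allows a share of up to 9.68% for each. No test was run on either cluster.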
